A study of Mus musculus with 6 samples.

Results

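The genes described here are 9 that code for inhibitory molecules of activated T cells: Lag3, Pdcd1, Ctla4, Tigit, Havcr2, Btla, Cd200, Cd274 and Cd160. They are 9 of the 21139 genes in the deposited table. They were chosen by gene name after the differences between CpdA and medium in these same libraries had been seen. Their fold changes are therefore given as a description, and no p-value is printed for them. Which of them passed the threshold in the fit over all genes is part of that description. Cd200 and Cd274 code for ligands (CD200 and PD-L1) that T cells also carry, and the other 7 code for receptors.

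RNA was sequenced from CD4+ T cells, the helper lineage, of C57BL/6J mouse spleen. All cells were activated through CD3 and CD28 with antibodies for 2 days, so both groups were stimulated. The control group of 3 libraries received medium alone. The other 3 received CpdA, an agonist of the receptor Gpr120 according to the series' design text, at a dose of 20 whose unit the labels write as "microm". The design asks how expression differs with and without the agonist. No age, vehicle or animal is given for any library, and nothing ties the replicates to separate cultures. The p-values thus speak of library-to-library spread alone, and that spread may be technical.

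Co-inhibitory receptors appear on T cells after stimulation and dampen signals from the antigen receptor and CD28. CTLA-4 removes CD80 and CD86 from reach of CD28, PD-1 binds PD-L1 and PD-L2 and recruits the phosphatase SHP-2, and TIGIT competes with the co-stimulatory receptor CD226 for PVR. LAG-3, a relative of CD4, binds MHC class II, BTLA and CD160 bind HVEM (the product of Tnfrsf14), TIM-3 (the product of Havcr2) has galectin-9 among its ligands, and CD200 acts through the receptor CD200R1.

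Promoter windows are shown for 3 genes that were lower with CpdA (Ctla4, Tigit and Pdcd1) and for the 1 that was higher (Cd274), to set genes that moved in opposite directions side by side. The 3 lower genes shown are those whose window holds the letters marked; the windows of Btla and Cd200, also lower, hold 0 matches. Each is the RefSeq window on GRCm38.p6, 5′ to 3′ on the gene's strand, from 250 bases before to 50 bases after the start site. Capitals mark the core letters bound by NFAT, a calcium-driven factor of T cell activation, searched as GGAAA on both strands (TTTCC on the other).
Ctla4 (chr1:60908775-60909074, plus strand): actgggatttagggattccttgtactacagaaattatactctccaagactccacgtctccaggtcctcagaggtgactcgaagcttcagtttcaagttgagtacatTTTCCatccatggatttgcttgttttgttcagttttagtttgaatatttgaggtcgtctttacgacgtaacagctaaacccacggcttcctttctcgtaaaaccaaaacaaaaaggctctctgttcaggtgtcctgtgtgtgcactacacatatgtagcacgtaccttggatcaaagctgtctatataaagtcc
Tigit (chr16:43664135-43664434, minus strand): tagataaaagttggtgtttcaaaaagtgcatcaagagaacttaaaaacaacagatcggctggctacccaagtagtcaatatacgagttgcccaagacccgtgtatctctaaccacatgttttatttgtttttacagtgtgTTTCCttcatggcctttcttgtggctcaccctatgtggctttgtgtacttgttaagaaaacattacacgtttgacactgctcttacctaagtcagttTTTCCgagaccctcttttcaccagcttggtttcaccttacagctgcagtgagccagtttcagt
Pdcd1 (chr1:94052504-94052803, minus strand): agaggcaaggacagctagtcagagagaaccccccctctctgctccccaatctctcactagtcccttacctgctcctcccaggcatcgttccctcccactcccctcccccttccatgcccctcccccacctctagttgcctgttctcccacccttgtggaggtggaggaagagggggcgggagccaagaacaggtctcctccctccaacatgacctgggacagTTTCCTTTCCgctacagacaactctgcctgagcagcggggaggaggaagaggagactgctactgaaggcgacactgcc
Cd274 (chr19:29367188-29367487, plus strand): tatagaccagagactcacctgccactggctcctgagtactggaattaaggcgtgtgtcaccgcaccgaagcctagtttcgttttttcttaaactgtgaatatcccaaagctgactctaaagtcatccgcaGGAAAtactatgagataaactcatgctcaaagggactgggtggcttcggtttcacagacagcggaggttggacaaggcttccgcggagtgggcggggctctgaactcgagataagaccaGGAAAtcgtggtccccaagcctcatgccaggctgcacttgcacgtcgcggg

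Windows were found for 8 of the 9 genes, all but Lag3, and there were 9 windows in all, since Cd160 has more than 1. The NFAT core was in 5 of the 9, and in 61.3% of the 32851 RefSeq windows of this length. Ctla4 held 1 match, 144 bases before the start site, and Pdcd1 held an adjoining pair, 28 and 23 bases before it. Tigit, which was lower with CpdA, and Cd274, which was higher, each held 2 matches. The AP-1 letters TGANTCA, which read the same on both strands, were in 1 window (Havcr2) and in 7.81% of all windows. The STAT letters TTCNNNGAA, also the same on both strands, were in 1 window (Cd160) and in 8.3% of all windows. No matches of different motifs overlapped, and a match describes letters only.

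Ctla4 was the most abundant of the 9 transcripts, and Havcr2 and Cd160 were barely detected. Levels are compared between genes in FPKM, which is scaled by gene length and library total. Ctla4 had a mean level of 421.9 ± 17.4 FPKM in medium (SD, n = 3), above 98.9% of the 13507 genes tested. Lag3 (120.8 ± 3.1 FPKM) and Tigit (116.1 ± 4.2 FPKM) followed, and their medium libraries overlapped. Cd200 (65.0 ± 2.4 FPKM), Btla (55.5 ± 2.4 FPKM), Cd274 (24.2 ± 0.34 FPKM) and Pdcd1 (13.6 ± 0.43 FPKM) came next, with no overlap between neighbours in this order. Havcr2 (1.02 ± 0.058 FPKM) and Cd160 (0.641 ± 0.094 FPKM) were above only 17.4% and 12.5% of tested genes.

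With CpdA the order of levels was the same except that Tigit (93.5 ± 4.1 FPKM) stood above Lag3 (69.1 ± 1.1 FPKM), and no neighbours overlapped. The summed level of the 9 genes was 835.2, 795.9 and 825.6 FPKM in the medium libraries and 619.6, 647.9 and 626.3 FPKM in the CpdA libraries. Ctla4 made up 49.6% to 52.4% of that sum over all 6 libraries. The share of Lag3 was 14.5% to 14.9% in medium and 10.5% to 11.2% with CpdA. The spread between libraries was small for the 7 better-measured genes, with a coefficient of variation of 1.4% to 4.36% in medium and 0.484% to 5.13% with CpdA. The lowest value of each group, that of Cd274, was below the spread that counting alone would give (2.26% in medium and 1.99% with CpdA). So was that of Pdcd1, at 3.17% against 4.14% in medium and 3.10% against 4.36% with CpdA. With CpdA, Lag3 (1.55% against 1.73%) and Cd200 (0.883% against 1.69%) were below it too. In these cases the closeness of the libraries is not a measure of low spread.

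**Figure D1:**
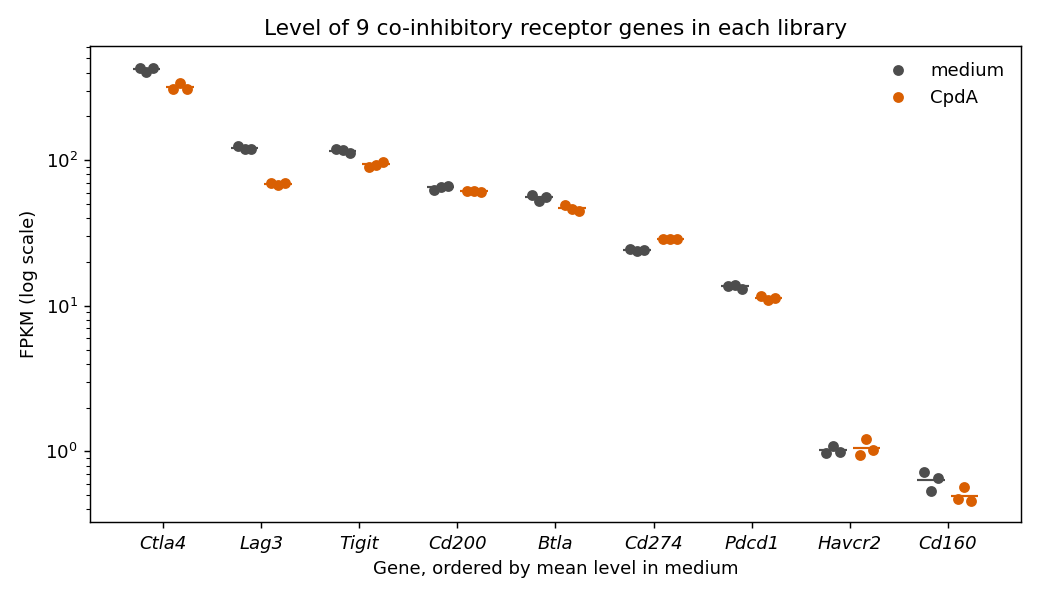
Level in FPKM (log scale) of each of the 9 genes, with 1 point for each of 3 medium libraries (grey) and 3 CpdA libraries (orange) and a line at each group mean. Ctla4 lies highest, Lag3 shows the widest separation of the groups, and the groups of Havcr2 and Cd160 overlap.

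With CpdA, Lag3, Ctla4, Tigit, Pdcd1, Btla and Cd200 were lower, Cd274 was higher, and Havcr2 and Cd160 did not pass the test. That is 7 of 9 genes past an adjusted p of 0.05 in the fit over all genes (edgeR, Benjamini-Hochberg), 6 lower and 1 higher. Of all 13507 genes tested, 33.2% passed, 16.7% lower and 16.5% higher. The groups of the same 7 genes did not overlap in CPM (counts scaled by the library total), which held for 43.9% of all tested genes. The median log2 fold change was -0.28 over the 9 genes and 0.0004 over all tested genes. Since the choice of genes used this contrast, nothing is read from these counts. In bulk RNA, fewer cells of a type and less RNA per cell cannot be told apart.

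**Figure D2:**
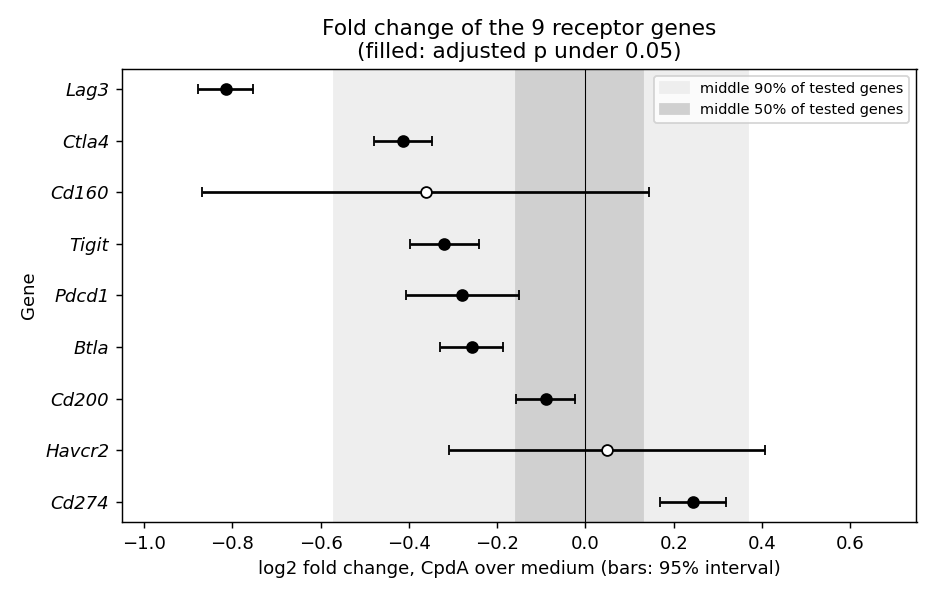
Log2 fold change of CpdA over medium for each gene, with bars for the 95% interval and filled points where the adjusted p was under 0.05. Shaded bands hold the middle 90% (-0.57 to 0.37) and the middle 50% (-0.16 to 0.13) of all tested genes, and Lag3 at -0.82 is the only 1 of the 9 points outside the wider band.

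Lag3 (chromosome 6, 124904361 to 124911705, GRCm38, minus strand), the receptor for MHC class II, had the largest difference of the 9. Its level was 124.3, 118.5 and 119.6 FPKM in the medium libraries and 69.2, 68.0 and 70.1 FPKM in the CpdA libraries. Every medium library was well above every CpdA library. The log2 fold change was -0.82 ± 0.03 (SE), rank 275 from the lowest of 13507 genes.

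Ctla4 (chromosome 1, 60887000 to 60915832, plus strand), which competes with CD28, had a level of 431.3, 401.9 and 432.6 FPKM in medium and 307.8, 337.5 and 310.8 FPKM with CpdA. The groups did not overlap, and the highest CpdA library was replicate 2. The log2 fold change was -0.41 ± 0.03. The deposited gene begins 22025 bases before the RefSeq start site used for the window above and contains the pseudogene Rpl18-ps1, which had only 119 counts in medium and 120 with CpdA.

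Tigit (chromosome 16, 43648861 to 43664184, minus strand), the competitor of CD226, had a level of 119.6, 117.2 and 111.5 FPKM in medium and 89.6, 93.1 and 97.9 FPKM with CpdA. All 3 CpdA libraries were lower than all 3 medium libraries. The log2 fold change was -0.32 ± 0.04.

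Pdcd1 (chromosome 1, 94038305 to 94052553, minus strand), which codes for PD-1, had a level of 13.6, 14.0 and 13.1 FPKM in medium and 11.6, 10.9 and 11.3 FPKM with CpdA. The groups were separate, though by little. The log2 fold change was -0.28 ± 0.07. Btla (chromosome 16, 45224315 to 45252895, plus strand), a receptor for HVEM, had a level of 57.6, 52.9 and 56.1 FPKM in medium and 49.4, 46.0 and 44.9 FPKM with CpdA. The lowest medium library was above the highest CpdA library, and the log2 fold change was -0.26 ± 0.04.

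Havcr2 (chromosome 11, 46454935 to 46481255, plus strand), which codes for TIM-3, rested on 54, 70 and 62 counts in medium and 55, 86 and 70 with CpdA. The groups overlapped. Its log2 fold change was 0.05 ± 0.18, with a 95% interval of -0.31 to 0.41. Cd160 (chromosome 3, 96798763 to 96829351, minus strand), which shares HVEM with BTLA, rested on 38, 33 and 39 counts in medium and 26, 38 and 30 with CpdA. Its groups overlapped too, and its log2 fold change was -0.36 ± 0.26, with a 95% interval of -0.87 to 0.14. It shares 68 bases with Pdzk1, which had 6 counts in medium and 9 with CpdA. At this depth a difference as large as that of Tigit was not detectable for Cd160.

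The 2 ligand genes differed from each other in direction. Cd200 (chromosome 16, 45382135 to 45409053, minus strand) had a level of 62.4, 65.8 and 66.8 FPKM in medium and 61.9, 61.7 and 60.9 FPKM with CpdA. The groups were apart by a narrow margin and the log2 fold change was only -0.09 ± 0.03. Its call was lost under 9 of 13 alternatives, among them DESeq2 and leaving out any library other than medium replicate 1. Over all 13 alternatives its log2 fold change ran from -0.12 (without medium replicate 1, where the call was kept) to -0.07 (without medium replicate 3).

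Cd274 (chromosome 19, 29367455 to 29388095, plus strand), which codes for PD-L1, had a level of 24.6, 24.0 and 24.1 FPKM in medium and 28.7, 28.9 and 29.0 FPKM with CpdA. All 3 CpdA libraries were higher. The libraries of each group lay closer together than counting alone would give, so their closeness is not a measure of low spread. The log2 fold change was 0.24 ± 0.04. Antigen-presenting cells also carry PD-L1. The 9 dendritic cell markers in the table summed to 171.6 to 178.7 CPM in medium and 145.1 to 149.8 CPM with CpdA, most of it H2-Ab1 (142.2 and 110.3 CPM). The other abundant markers of that list did not share the lower level of H2-Ab1: H2-Aa had 12.2 CPM in medium and 13.8 CPM with CpdA, H2-Eb1 15.5 and 16.0 CPM, Flt3 2.22 and 2.60 CPM and Zbtb46 3.29 and 3.90 CPM. Clec9a and Siglech had at most 3 counts in a group. The 8 macrophage and monocyte markers summed to 4.91 to 5.98 CPM in medium and 4.58 to 4.66 CPM with CpdA, most of it Cd68 (5.05 and 3.92 CPM), and Adgre1, Csf1r, Lyz2, Cd14, C1qa and C1qb had at most 8 counts in a group. Each of these sums was lower with CpdA mainly through 1 gene, H2-Ab1 or Cd68; the part of such cells in the level of Cd274 was not tested.

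CD8 T cells and NK cells carry several of the receptors, CD160 among them. The 2 CD8 markers summed to 7.99 to 8.84 CPM in medium and 7.33 to 9.40 CPM with CpdA. The 8 NK markers summed to 52.2 to 57.0 CPM in medium and 50.1 to 52.5 CPM with CpdA, nearly all of it Gzma, and Ncr1 had 2 counts in medium and 1 with CpdA. The 13 CD4 T cell markers summed to 4229 to 4325 CPM in medium and 4152 to 4287 CPM with CpdA, but they moved in both directions. Mean levels of Zap70, Cd4, Cd3e, Cd3g, Cd3d, Trac, Cd28 and Lck were lower with CpdA. Those of Cd5, Cd6, Cd2, Lat and Trbc2 were higher. Zap70 was at 298.4 CPM in medium and 226.5 CPM with CpdA, and Cd5 at 573.4 and 637.9 CPM. The 8 B cell markers summed to 39.3 to 48.0 CPM and 40.5 to 47.0 CPM, and no marker in the table was at 0 in all libraries. The 3 plasma cell markers summed to 238.5 to 246.3 CPM and 242.3 to 247.1 CPM, mostly Xbp1, and the 2 gamma delta T cell markers to 0.634 to 1.28 CPM and 1.03 to 1.16 CPM. The lowest exact permutation p of the 8 lists was 0.1 (two-sided), the smallest that 3 against 3 libraries allow, and 0.4 after adjustment over the lists.

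Some ratios of a receptor or ligand gene to a partner were apart between the groups, and others overlapped. A ratio of 2 levels within 1 library does not depend on how the library was scaled. The ratios carry no test, since at least 1 side was chosen on this contrast, and both sides were for Pdcd1 to Cd274. Lists that hold partners were also drawn up with earlier results of these data known. Tigit stood at 23.0 ± 2.0 times the FPKM of its competitor Cd226 in medium (SD, n = 3) and at 10.7 ± 0.29 times with CpdA, with no overlap. Cd226 itself was at 11.3, 13.2 and 11.4 CPM in medium and 20.3, 20.4 and 21.0 CPM with CpdA, so the genes moved in opposite directions (log2 fold change of Cd226 0.77 ± 0.08, adjusted p = 5.13e-10, edgeR).

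Ctla4 stood at 5.49 ± 0.22 times Cd28 (SD, n = 3) in medium and 4.48 ± 0.18 times with CpdA, with Cd28 itself lower (log2 fold change -0.12, adjusted p = 0.00123). Against Icos, the neighbouring co-stimulatory receptor gene, the ratio of Ctla4 was 21.3 ± 1.5 in medium and 15.7 ± 0.30 with CpdA, and Icos did not pass (log2 fold change 0.03, adjusted p = 0.683). Lag3 stood at 0.988 ± 0.039 times its relative Cd4 in medium and 0.644 ± 0.014 times with CpdA. Pdcd1 stood at 0.562 ± 0.020 times the gene of its ligand, Cd274, and at 0.392 ± 0.013 times with CpdA. In these 4 ratios the groups did not overlap.

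The ratio of the PD-1 ligands, Cd274 to Pdcd1lg2, overlapped between the groups (1.69 ± 0.16 and 1.62 ± 0.032), as both ligands were higher. The ratio of Cd200 to Cd200r1 also overlapped (35.7 ± 5.8 and 34.3 ± 3.7). That of Btla to Tnfrsf14, the gene of its ligand HVEM, overlapped only through CpdA replicate 2 (2.22 ± 0.12 and 2.78 ± 0.45). It was 2.151, 2.356 and 2.157 in the medium libraries and 3.145, 2.282 and 2.91 in the CpdA libraries.

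**Figure D3:**
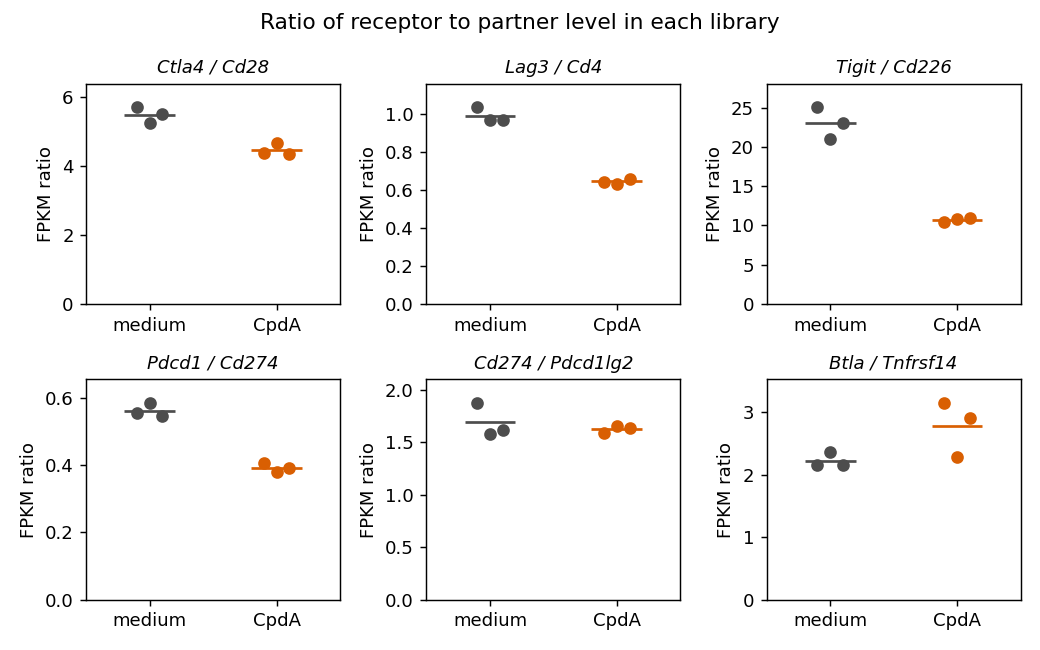
Ratio of the FPKM of a receptor or ligand gene to that of a partner in each library, 1 point a library and a line at the group mean, with each axis starting at 0. Tigit to Cd226 goes from 23.0 in medium to 10.7 with CpdA, and the groups overlap for Cd274 to Pdcd1lg2 and for Btla to Tnfrsf14.

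Several of the 9 genes lie beside relatives. The tested genes next to each were taken in order of gene start. Of the 16 that are not among the 9, 2 were lower, 4 were higher and 10 did not pass the test. Of all tested genes, 33.2% passed, 16.7% lower and 16.5% higher, so nothing is read from this count. Lag3 lies 16139 bases from Cd4 (log2 fold change -0.20, adjusted p = 4.96e-07) and 1975 bases from Ptms (-0.24, adjusted p = 0.000225), both lower in the edgeR fit but by less than Lag3. Cd274 lies 22823 bases from Pdcd1lg2, the gene of PD-L2, which was higher like Cd274 (0.29, adjusted p = 0.000464), and 64 bases from Plgrkt on the opposite strand (0.07, adjusted p = 0.273). Whether counting used strand is unknown, and reads at such close borders may be shared.

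Rnf115, next to Cd160, was higher (log2 fold change 0.21, adjusted p = 0.000314, edgeR). Qtrtd1, 197222 bases from Tigit (0.28, adjusted p = 0.0102), and Abhd10, 320671 bases from Cd200 (0.28, adjusted p = 0.028), were higher as well. Tigit and Cd200 were lower. Qtrtd1 lost its call without medium replicate 3 or CpdA replicate 3, and Abhd10 lost it under 5 alternatives. The neighbours that did not pass were D2hgdh, Fam174a, 2310016D23Rik, Rpl18-ps1, Zbtb20, Med7, Timd2, Gm6030, Plgrkt and Gpr89. Of these, D2hgdh, 185956 bases from Pdcd1 (-0.20, adjusted p = 0.0576), passed with the CPM filter of at least 5 in 3 libraries and without CpdA replicate 3. Zbtb20, 6258 bases from Tigit (-0.23, adjusted p = 0.166), passed without medium replicate 2 (-0.37). Both went in the direction of the receptor gene named with them. Btla and Cd200 are each other's neighbours, 129239 bases apart, and Ctla4 lies between Cd28 (113640 bases) and Icos (62094 bases). The neighbours counted for Ctla4 were 2310016D23Rik (83209 bases) and the pseudogene Rpl18-ps1 inside it, so Cd28 and Icos are not among the 16.

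The pathway around the 9 genes moved in both directions. The lists were drawn up with earlier results of these data known, and their counts are read beside the 33.2% of all tested genes that passed. Among 14 tested ligands and receptor partners, 3 were higher and 3 lower (median log2 fold change -0.01). The lower ones were Lgals3, a galectin that binds LAG-3 (-0.81, adjusted p = 9.07e-16, edgeR), Tnfrsf14 (-0.55, adjusted p = 1.16e-05) and Pvr, the ligand of TIGIT (-0.29, adjusted p = 1.76e-07). The higher ones were Cd226, Pdcd1lg2 and Hmgb1, a ligand of TIM-3 (0.25, adjusted p = 8.66e-09). Cd80 (-0.20, adjusted p = 0.404) and Cd86 (0.10, adjusted p = 0.536), the ligands of CTLA-4, did not pass, nor did Cd200r1 (-0.03, adjusted p = 0.907) or Lgals9 (0.01, adjusted p = 0.832). Over the alternatives, the log2 fold change of Cd80 ran from -0.31 to -0.05 and that of Cd86 from 0.03 to 0.15, both nearest to 0 without medium replicate 2.

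Of 24 tested genes for inhibitory signalling below the receptors, 10 were lower and 2 higher (median log2 fold change -0.08). The ubiquitin ligase gene Rnf128 (-0.75, adjusted p = 0.00302, edgeR), the phosphatase gene Ptpn22 (-0.58, adjusted p = 2.48e-15) and Ubash3b (-0.41, adjusted p = 8.88e-10) fell most. Rnf128 was at a low level, 3.05 CPM in medium and 1.81 CPM with CpdA (204 and 133 counts). Ptpn6, which codes for the phosphatase SHP-1, was at 217.4, 220.6 and 219.0 CPM in medium and 182.6, 183.4 and 184.4 CPM with CpdA (-0.27, adjusted p = 4.53e-09). Ptpn11, which codes for SHP-2, did not pass (0.02, adjusted p = 0.705). The higher ones were Sla (0.11, adjusted p = 0.0132) and Pag1 (0.20, adjusted p = 0.0225), each of which lost its call under 3 alternatives, including without medium replicate 1 and without CpdA replicate 3. Without CpdA replicate 3, the log2 fold change of Pag1 was 0.11. The count higher in this list was 0 without medium replicate 1 or CpdA replicate 3, 1 under DESeq2 or without medium replicate 3, and 4 without medium replicate 2.

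Of 13 tested genes for trafficking and shedding of the receptors, 2 were lower and 2 higher (median log2 fold change -0.002). These counts are not stable: over the alternatives, 0 to 2 were lower and 1 to 4 higher, with 4 higher without medium replicate 2 and 0 lower under DESeq2, the replicate block, or without medium replicate 1, medium replicate 3 or CpdA replicate 1. Trat1, an adaptor of the antigen receptor and CTLA-4, rose (0.61, adjusted p = 0.000272, edgeR). Lrba, which protects CTLA-4 from lysosomal breakdown (-0.13, adjusted p = 0.0288), Fbxo38, a ubiquitin ligase subunit for PD-1 (-0.10, adjusted p = 0.0465), and Ap2m1, the clathrin adaptor subunit that binds CTLA-4 (0.09, adjusted p = 0.015), passed by little and lost their calls under 5, 11 and 4 alternatives. Without CpdA replicate 1, the log2 fold change of Lrba was -0.07.

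Of 29 tested regulators of co-inhibitory genes, 11 were lower and 4 higher (median log2 fold change -0.08). The orphan nuclear receptor gene Nr4a3 was at 52.5, 57.3 and 58.2 CPM in medium and 27.7, 29.7 and 28.8 CPM with CpdA (-0.97, adjusted p = 1.38e-17, edgeR). Nr4a2 (-0.72, adjusted p = 7.22e-14), Ahr (-0.55, adjusted p = 3.91e-08) and Nfatc1 (-0.31, adjusted p = 9.07e-09) fell as well, whereas Batf3 (0.39, adjusted p = 3.53e-06), Fos (0.34, adjusted p = 0.0102) and Irf1 (0.18, adjusted p = 0.00034) rose. The factors Nfatc2 (0.06, adjusted p = 0.172), Tox (-0.18, adjusted p = 0.435), Prdm1 (0.08, adjusted p = 0.382), Maf (0.06, adjusted p = 0.237), Tbx21 (0.02, adjusted p = 0.791) and Eomes (0.10, adjusted p = 0.824) did not pass. Maf passed without medium replicate 1 (0.11, adjusted p = 0.0322). Over the alternatives, the log2 fold change of Prdm1 ran from 0.02 to 0.12 and that of Eomes from 0.04 to 0.20.

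Of 16 tested genes listed as other inhibitory receptors, 7 were lower and 3 higher (median log2 fold change -0.18). The list is wider than its name: it also holds the ectoenzyme genes Entpd1 and Nt5e and the gene Cd83, all among the lower. The TNF receptor gene Tnfrsf1b, listed too, did not pass (-0.04, adjusted p = 0.518, edgeR). Vsir, which codes for VISTA, was at 109.2, 97.6 and 101.2 CPM in medium and 61.8, 67.5 and 67.8 CPM with CpdA (-0.65, adjusted p = 8.7e-15, edgeR), and Entpd1, the ectoenzyme CD39, fell too (-0.61, adjusted p = 8.61e-07). Cd244 had the lowest value (-1.15, adjusted p = 0.0304) from a level of only 0.798 CPM in medium and 0.352 CPM with CpdA, and lost its call in 5 of 6 fits that left out 1 library, keeping it only without CpdA replicate 2 (-1.74). Lilrb4 (0.34, adjusted p = 2.39e-11), Cd5 (0.14, adjusted p = 0.0001) and Cd6 (0.12, adjusted p = 0.00333) rose.

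Of 17 tested genes listed as co-stimulatory receptors, 8 were lower and 5 higher (median log2 fold change -0.07). The list also holds the ligand gene Cd40lg, which was among the lower. Tnfrsf9, which codes for 4-1BB (-0.64, adjusted p = 7.12e-21, edgeR), and Cd27 (-0.36, adjusted p = 1.17e-07) fell, as did Crtam (-0.35, adjusted p = 0.00813), whose call was lost without medium replicate 3 or CpdA replicate 1. Of the 5 that were higher, Cd226 had the highest value, followed by Cd48 (0.13, adjusted p = 0.019), whose call was lost without medium replicate 1 or 2 or CpdA replicate 1, and Tnfrsf8 (0.12, adjusted p = 0.00137). The count lower was 5 without CpdA replicate 1, and the count higher was 3 without medium replicate 2.

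**Figure D4:**
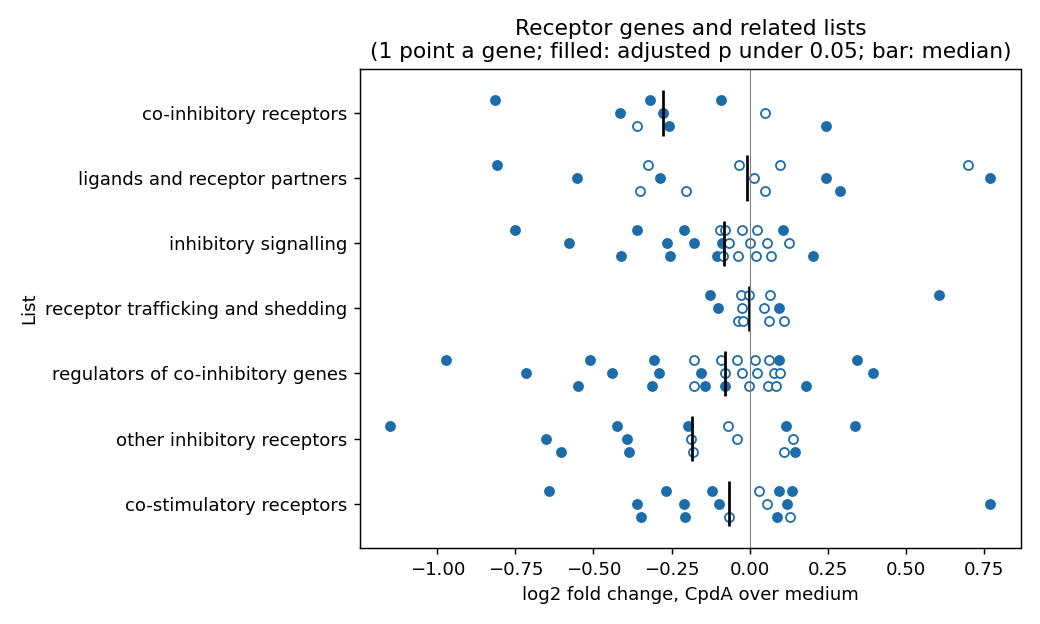
Log2 fold change of CpdA over medium for every tested gene of the 9 and of 6 related lists, 1 point a gene, filled where the adjusted p was under 0.05, with a bar at each list's median. The medians lie between -0.28 for the 9 genes and -0.002 for trafficking and shedding, and every list has genes on both sides of 0.

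Among 6747 genes of at least median level, the profiles most like that of Lag3 over the 6 libraries belonged to Lgals3, Nr4a2 and Bend4, with a root mean square difference of centred log2 CPM of 0.039, 0.053 and 0.056. Lgals3 was at 64.2, 57.8 and 58.5 CPM in medium and 34.0, 35.3 and 34.2 CPM with CpdA. The profiles most like that of Cd274 belonged to Cd74, the invariant chain of MHC class II (0.0094), the chaperone gene Dnajc3 (0.011) and Mtdh (0.015). Cd74 was at 76.8, 76.0 and 76.0 CPM in medium and 90.2, 91.3 and 90.3 CPM with CpdA. These likenesses mostly reflect the split between the 2 groups, which all 6 points share, and are a description.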

How the data were processed

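The members and related lists were chosen with earlier results of these data known. Per the file headers, the authors deposited read counts for each gene, without normalization, and FPKM. The FPKM follow from the counts, gene lengths and library totals (largest relative difference 1.86e-07). CASAVA 1.8, GRCm38 and mm10 appear in the submitters' processing notes. For the aligner, counter, annotation and strand setting: not given in the sources used here. Library totals were 20247761 to 25952169 counts, and 0 columns of per-sample values were left unmapped.

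Counts were tested with edgeR 4.0.16 (quasi-likelihood, robust, TMM, filterByExpr with minimum count 10 and total 15) in R 4.3.3, 3 medium against 3 CpdA libraries without covariates, with Benjamini-Hochberg adjustment over 13507 genes and a threshold of 0.05. The script was tested on simulated data. SE is the log2 fold change divided by the square root of F, and 95% intervals are 1.96 SE to either side. Library pairs differed beyond sampling noise (chi-square per degree of freedom 2.13 to 3.95 within groups and 9.99 to 17.2 between them). Named genes are all members, the 3 highest and 3 lowest called genes of each list, a set of partners and factors named whether called or not, nearest tested neighbours, and the 3 closest profiles to the lowest and highest member. Alternatives were other scalings, no count filter, a CPM of at least 5 in 3 libraries, DESeq2 1.42.0, limma-voom (limma 3.58.1), a replicate block and each library left out.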

Additional observations from a re-analysis of the deposited data

How the results depend on the processing

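Of the 7 members called, 6 kept their call and direction in all 13 alternatives; the exception was Cd200. The number of members called was 6 or 7, with 1 higher throughout. Genes called numbered 4483, and 3648 (DESeq2) to 4538 (library size alone) under other settings and 3660 to 4336 with 1 library left out; calls in the related lists numbered 59, and 48 to 59 and 46 to 56. The replicate numbers did not pair the libraries (correlation of deviations -0.0213 to -0.000561), and with the replicate block 3936 genes, 6 members and 51 genes of the related lists were called. Of 66 other named genes, 47 were the same in every alternative, 10 lost and 3 gained a call somewhere, and 6 changed sign; the cause was not tested. Opposite signs came only from leaving out a library, and only for genes without a call. With each library left out in turn, log2 fold changes ranged from -0.0648 (without CpdA replicate 2) to 0.122 for Havcr2, -0.00621 to 0.0609 for Icos, -0.131 to 0.0785 for Cd200r1, -0.0173 to 0.0518 for Lgals9, -0.0303 to 0.0925 for Tbx21, -0.577 to 0.00983 for 2310016D23Rik and -0.299 to 0.598 for Gm6030. The marker sums (CpdA minus medium, CPM) ranged from -0.179 to 0.855 for CD8 T cells, -2.946 to 1.405 for B cells and -0.00774 to 0.317 for gamma delta T cells, and kept their sign for the other 5 lists. Depth limits Havcr2 and Cd160, with at most 86 counts in a library.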
